A study of Mus musculus with 6 samples.

Results

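The genes described are 30 genes of Sertoli cells and of the blood-testis barrier, taken as a list by name from the 34844 gene names of the array. Each gene was read by every non-control probe that carries its name, which gave 38 of 55681 different probes. The rule itself uses no measured level, but the list was chosen with earlier results of these data known. Whole testes of C57BL/6 mice aged 8 weeks were compared between 3 knockout animals lacking Gipr (Gipr-/-, labelled GIPR KO) and 3 wild-type animals (Gipr+/+), with 1 array per animal and no treatment in either group. The product of Gipr is the receptor of GIP, an incretin hormone of the gut that amplifies insulin secretion when food is absorbed. The labels give neither the targeted part of the gene nor the tissues in which it is lost, and they do not say whether the animals were littermates.

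Sertoli cells are the somatic cells of the seminiferous tubule. They hold the germ cells, secrete the tubule fluid and its proteins, and answer to follicle-stimulating hormone and androgen. Neighbouring Sertoli cells are joined by tight, adherens and gap junctions that form the blood-testis barrier, behind which meiosis and spermatid formation take place. They also make growth factors and chemokines that keep the stem cell pool of the spermatogonia.

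Values are log2 processed signals relative to the 75th percentile of each array. They compare 1 probe between arrays, and levels of different probes are not set against each other. Each array had 70.6% to 76.0% of its non-control spots well above background and 0 saturated spots. The knockout arrays lie in slide row 1 and the wild-type arrays in slide row 2 of the same slide, so row and genotype cannot be told apart. The Gipr probe read -2.35, -2.31 and -2.12 in knockout replicates 1 to 3 and 0.08, 0.15 and 0.44 in the wild-type replicates, 5.58-fold lower in the knockout (limma adjusted p = 0.0031). It lies at position 1720 of its transcript and whether that lies in the deleted part is not given, so it separates the arrays by label only. Over all 38882 tested probes, 18 passed an adjusted p under 0.05, 16 of them lower in the knockout, and 5 to 11 passed when any 1 of the 6 arrays was left out.

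All 30 genes were measured in every testis. A probe entered the test if all 3 arrays of either genotype read it well above background, and 37 of the 38 probes did so on all 6 arrays. Each gene is described by its leading probe, the brightest of its tested probes, and 7 genes had another tested probe. The defining Sertoli markers Sox9, Wt1, Clu and Rhox8 were among those read on all 6 arrays. The probe that was not tested is placed on a RefSeq transcript of Erbb4 and stood above background on 0 of 6 arrays, so Erbb4 is described by a probe that the files place on another transcript of that gene.

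The levels of Sertoli and barrier genes differed little between genotypes. By limma, 0 of the 30 genes passed an adjusted p under 0.05, against 0.0556% of all genes, and the lowest adjusted p of any member probe was 0.613. At an unadjusted p under 0.05, 1 member was higher (3.47% of all genes) and 0 were lower (3.49% of all genes). Non-overlapping genotypes were seen for 3 members with the knockout higher (7.08% of all genes) and for 0 with the knockout lower (5.98% of all genes). The difference was above 0 for 25 of the 37 tested probes (52.6% of all tested probes) and below 0 for 12 (47.4%). Counted by probe, 0 passed an adjusted p under 0.05 (0.0463% of all tested probes), 1 was higher (4.39%) and 0 were lower (3.27%) at an unadjusted p under 0.05, and 3 were higher (7.84%) and 0 lower (5.54%) with no overlap. Counts this near the background are not a result about these genes. Without knockout replicate 2 the members at an unadjusted p under 0.05 were 6, beside 13.8% of all genes in that fit in either direction. Without wild-type replicate 3 they were 3, beside 9.07% of all genes. With any other array left out they were 1, and with all arrays the share of all genes was 6.95%.

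The intervals show what size of difference these arrays could have held. The 95% interval, not adjusted for the number of genes, lay within 1.5-fold either way for 26 of the 30 genes and within 1.25-fold for 16. Those reaching past 1.5-fold were Shbg, Cldn3, Cxcl12 and Erbb4, and Erbb4 alone reached past 2-fold. The difference was above 0 for 20 of 30 genes, against 50.6% of all genes, and below 0 for 10, against 49.4%, with a median of 0.07 on the log2 scale against 0.0018. No test was made of that median, because the genes were chosen with earlier results of these data known. In RNA of a whole testis, fewer cells of a type and less RNA per cell cannot be told apart.

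**Figure D1:**
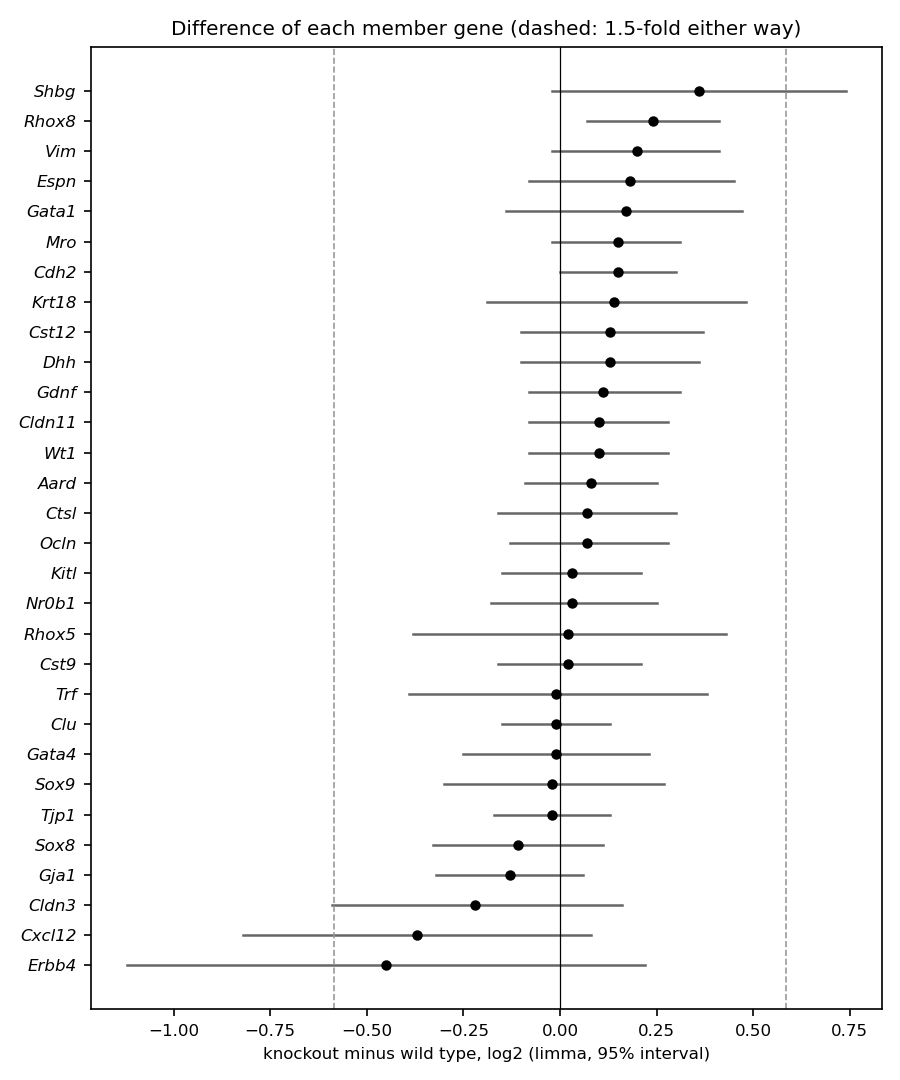
Difference between knockout and wild type for the leading probe of each of the 30 genes, on the log2 scale, as a point with its 95% interval from limma (3 arrays per genotype); dashed lines mark 1.5-fold either way. The intervals of Shbg, Cldn3, Cxcl12 and Erbb4 cross a dashed line, and that of Rhox8 lies above 0.

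Among the transcription factors, the genotypes overlapped for Sox9 and Wt1, genes that set Sertoli identity. Sox9, the factor that starts Sertoli differentiation, read -0.93, -0.89 and -0.55 in the knockout replicates and -0.67, -0.83 and -0.82 in the wild-type replicates. The knockout held both the highest and the lowest testes, and the difference was -0.02 ± 0.12 (log2, SE; limma adjusted p = 0.975). Wt1, a zinc finger protein that maintains the identity of the cells, read 3.1, 3.08 and 3.24 against 3.11, 3.0 and 3.01. Its groups overlapped, and its interval ran from -0.08 to 0.28.

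GATA factors switch on many Sertoli products. Gata4 differed by -0.01 ± 0.10 and Gata1 by 0.17 ± 0.13 (log2, SE). Gata1 read 1.67, 1.63 and 1.97 in the knockout against 1.72, 1.64 and 1.41 in the wild type, so that knockout replicate 3 was the highest array and wild-type replicate 3 the lowest. Sox8, a close relative of Sox9, differed by -0.11 ± 0.09. The nuclear receptor gene Nr0b1, which Leydig cells also express, differed by 0.03 ± 0.09. The androgen-induced homeobox gene Rhox5 varied more within the wild type than between genotypes, at 3.74, 3.70 and 3.18 against 3.52, 3.44 and 3.73 in the knockout (difference 0.02 ± 0.17).

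Rhox8, a homeobox gene of the X-linked reproductive cluster, was the 1 member with an unadjusted p under 0.05, and its probes gave different values. Its leading probe (chrX:35231462-35231521, build mm9, minus strand, starting at base 437 of the transcript) consists mostly of a repeat, while the other (chrX:35227953-35228012, same strand, from base 1146) does not. Both are shown because they differ in sequence and in result, and capitals mark the longest GAA run (44 bases). The second line gives the first 30 bases of the other probe.
Rhox8 leading probe: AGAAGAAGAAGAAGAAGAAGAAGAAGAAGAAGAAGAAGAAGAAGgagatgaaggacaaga
Rhox8 other probe: aacgcattattttaccacccccctctctca
The files place both probes in this gene, and no exon or UTR annotation of mm9 was used.

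On the repeat probe Rhox8 read 7.02, 6.90 and 7.02 in the knockout replicates and 6.66, 6.76 and 6.81 in the wild-type replicates. Every knockout testis lay above every wild-type testis, and the difference was 0.24 ± 0.07 (log2, SE), 1.18-fold, with an unadjusted p = 0.0134 and an adjusted p = 0.613 in limma. The other probe read 1.97, 1.96 and 2.08 against 1.99, 2.0 and 1.98. There the wild-type values lay inside the knockout range, and the difference was 0.01 ± 0.06 with an interval from -0.13 to 0.16. The log2 ratio of the repeat probe to the other probe was 5.05, 4.95 and 4.94 in the knockout against 4.67, 4.76 and 4.83 in the wild type (two-sided exact permutation test, p = 0.1, the smallest that 3 arrays against 3 can give).

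The same repeat occurs in probes for other transcripts. On the array, 29 probes hold a GAA run of at least 30 bases (counted on the printed strand), and all of the 28 besides the Rhox8 probe were tested. All 28 read higher in the knockout, by 0.05 to 0.23 on the log2 scale with a median of 0.18, against 52.6% of all tested probes above 0. An unadjusted p under 0.05 with the knockout higher was reached by 11 of them, or 39.3%, against 4.39% of all tested probes. These probes share sequence and are no replicates of each other, and their lowest adjusted p was 0.607. Relative to each probe's own mean, their median was 0.14, 0.00 and 0.10 in knockout replicates 1 to 3 and -0.15, -0.08 and -0.01 in wild-type replicates 1 to 3. With the 29 probes left out, an alternative chosen after seeing the data, 0 of the 30 genes reached an unadjusted p under 0.05, the lowest adjusted p of a member was 0.651, and Rhox8 stood at 0.014.

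**Figure D2:**
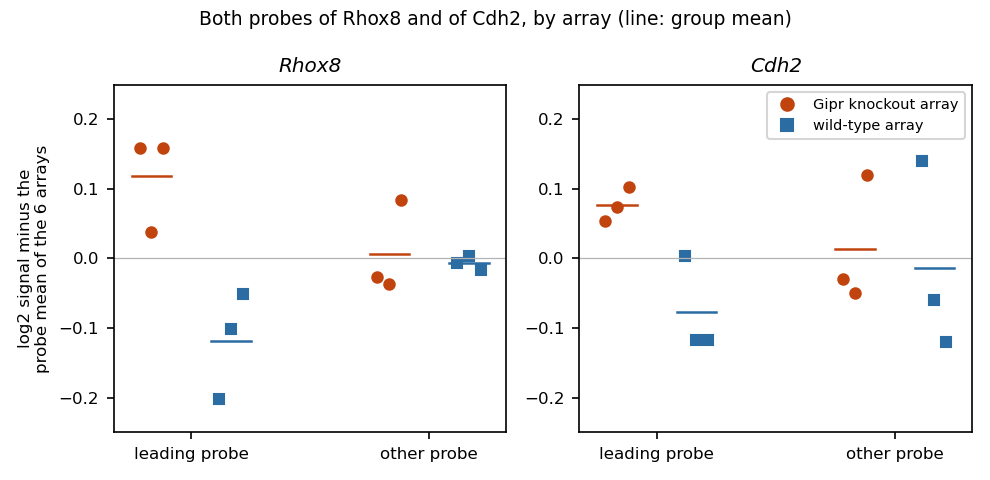
Log2 signal of both probes of Rhox8 and of Cdh2 on each array, relative to that probe's mean of the 6 arrays; horizontal lines are group means over 3 arrays. The genotypes separate on the leading probe of either gene (differences 0.24 and 0.15) and overlap on the other probe (0.01 and 0.03).

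Among the secreted proteins, Clu and Cst9 varied little between animals, while Trf in both genotypes and Shbg in the knockout varied more than most members. Clu (clusterin), a secreted chaperone of the tubule fluid, read 7.32, 7.39 and 7.39 in the knockout against 7.42, 7.35 and 7.37 in the wild type. Its interval, from -0.15 to 0.13, was among the narrowest of the list. Cst9 and Cst12, genes of the cystatin family of protease inhibitors that lie on chromosome 2, differed by 0.02 ± 0.08 and 0.13 ± 0.10 (log2, SE). Ctsl, the cysteine protease cathepsin L, differed by 0.07 ± 0.10.

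Shbg, whose testicular product is the androgen-binding protein of the tubule, had the largest positive difference of the list. It read 0.27, -0.10 and 0.51 in the knockout replicates and -0.03, -0.23 and -0.14 in the wild-type replicates. Knockout replicates 1 and 3 lay above the wild type and replicate 2 lay within it. The difference was 0.36 ± 0.16 (log2, SE), 1.28-fold with an interval from 0.983 to 1.67, and did not pass (limma adjusted p = 0.652). It was 0.215 without knockout replicate 3 and 0.519 without knockout replicate 2. Trf, the iron carrier transferrin, varied more within each genotype than between them, with 1.75, 1.94 and 1.57 in the knockout against 1.60, 2.07 and 1.61 in the wild type. Replicate 2 was the highest of each genotype. Both of these arrays lie in slide column 2, so animal and array position cannot be told apart. The other Trf probe, read on the same arrays, ordered those of each genotype in the same way, at 0.78, 0.87 and 0.52 against 0.55, 1.04 and 0.59.

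Tight junction genes showed no common direction. Cldn11, the claudin that builds the strands of the barrier, read 3.24, 3.26 and 3.37 in the knockout against 3.30, 3.15 and 3.13 in the wild type, with a difference of 0.10 ± 0.08 (log2, SE). Cldn3, a claudin of newly assembled junctions, read -0.04, 0.38 and -0.10 against 0.28, 0.12 and 0.49, with a difference of -0.22 ± 0.16. The genotypes overlapped for both. Ocln, the transmembrane protein occludin, differed by 0.07 ± 0.08 on its leading probe and by 0.06 ± 0.12 on a dimmer one. Tjp1, the zonula occludens scaffold that ties claudins to actin, had a difference of -0.02 ± 0.06 and an interval from -0.17 to 0.13. Tjp1 is the only member with a probe on chromosome 7, the chromosome of Gipr, where it lies at chr7:72441126-72441185 (mm9) while the Gipr probe lies at chr7:19742486-19742545.

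For the adherens junction gene Cdh2 (N-cadherin), all 3 knockout testes lay above the wild type on the leading probe, at 2.70, 2.72 and 2.75 against 2.65, 2.53 and 2.53. The difference was 0.15 ± 0.06 (log2, SE; limma adjusted p = 0.649). The other Cdh2 probe overlapped, with 2.03, 2.01 and 2.18 against 2.2, 2.0 and 1.94 and a difference of 0.03 ± 0.09. The difference between the probes was 0.12 (two-sided exact permutation test, p = 0.2, where 3 arrays against 3 cannot go below 0.1). Gja1, the main connexin of Sertoli gap junctions, read -1.79, -1.61 and -1.61 against -1.55, -1.62 and -1.46, a difference of -0.13 ± 0.08.

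Cytoskeletal genes of the junction read as follows. Espn, which bundles actin at the ectoplasmic specialization, differed by 0.18 ± 0.11 and 0.15 ± 0.11 (log2, SE) on its 2 probes. These probes are not independent, because they overlap by the 18 bases shown here, with which the leading probe begins and the other one ends.
Espn shared bases: ggggagatccctaagtaa
The intermediate filament gene Vim (vimentin) read 3.11, 2.9 and 3.16 in the knockout against 2.93, 2.84 and 2.81 in the wild type, where only knockout replicate 2 fell within the wild-type range (difference 0.20 ± 0.09; limma adjusted p = 0.652). Krt18, a keratin typical of immature Sertoli cells, differed by 0.14 ± 0.14. Its wild-type values ranged from -2.81 to -2.26 and enclosed all 3 knockout values.

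**Figure D3:**
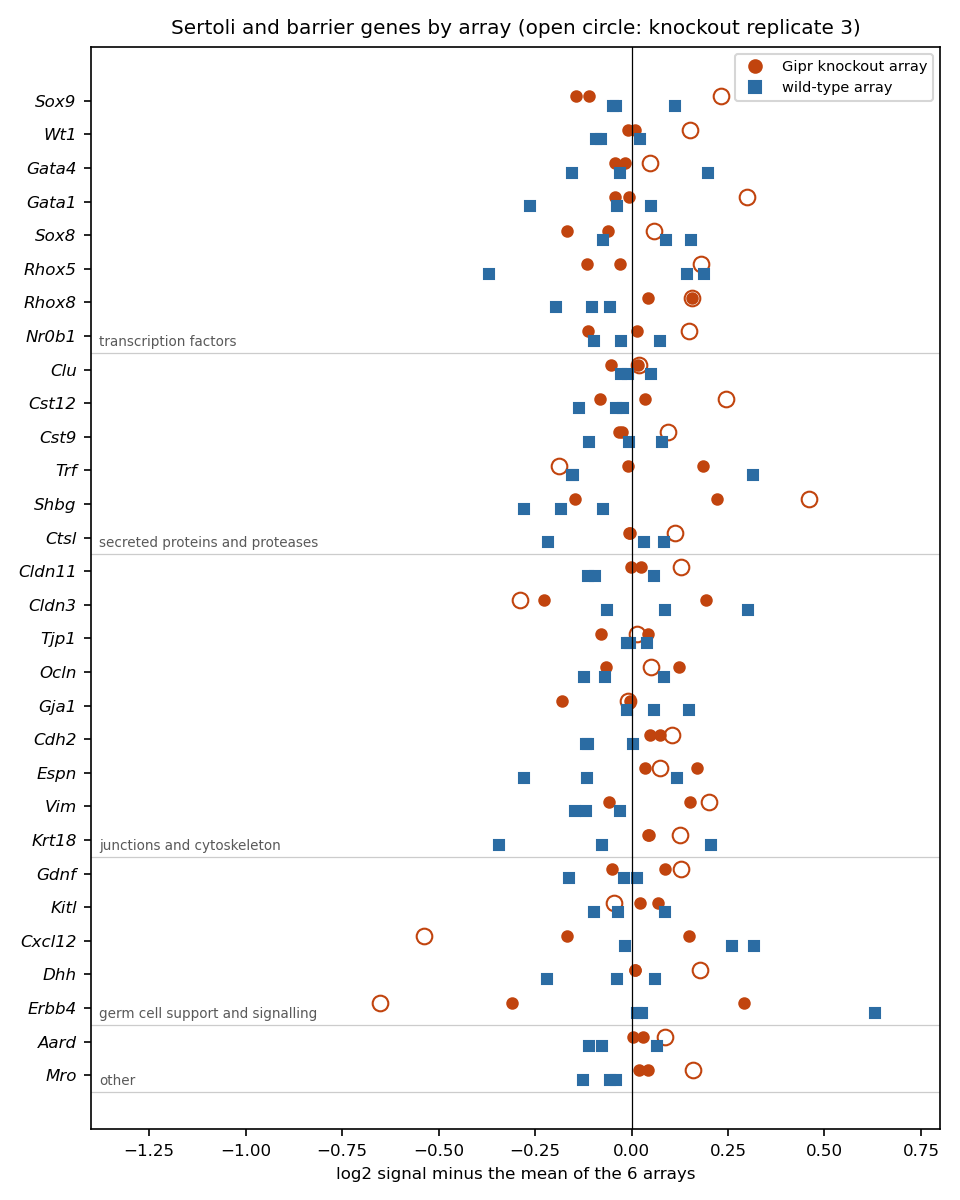
Log2 signal of the leading probe of each of the 30 genes on each array, relative to that gene's mean of the 6 arrays, grouped by role; circles are knockout arrays, with replicate 3 open, and squares are wild-type arrays. Knockout replicate 3 is the highest array for 15 genes and the lowest for Trf, Cldn3, Cxcl12 and Erbb4; only Rhox8, Cdh2 and Mro have every circle above every square.

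Germ cell support factors and signalling genes included the largest negative differences. Cxcl12, a chemokine that holds spermatogonial stem cells in their niche and is also made outside the tubule, read -0.05, 0.26 and -0.43 in the knockout replicates and 0.37, 0.43 and 0.10 in the wild-type replicates. Knockout replicates 1 and 3 lay below every wild-type testis and replicate 2 within the wild-type range. The difference was -0.37 ± 0.19 (log2, SE), and it did not pass (limma adjusted p = 0.659). It was -0.197 without knockout replicate 3 and -0.540 without knockout replicate 2. A probe for another Cxcl12 transcript gave -0.26 ± 0.18, with the same highest array in each genotype. Erbb4, a receptor for neuregulins, was dim and scattered most, at -5.17, -4.57 and -5.52 against -4.85, -4.84 and -4.23. Its interval, from -1.12 to 0.22, would hold a fall past 2-fold as well as no change. Its difference of -0.45 was -0.151 with normexp background correction, -0.705 without knockout replicate 2, -0.233 without knockout replicate 3 and -0.244 without wild-type replicate 3.

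The growth factor genes proper were close in both genotypes. Gdnf, which drives self-renewal of spermatogonial stem cells, read -2.82, -2.69 and -2.65 in the knockout against -2.79, -2.94 and -2.76 in the wild type (difference 0.11 ± 0.08, log2, SE). Kitl, the ligand that differentiating spermatogonia need, differed by 0.03 ± 0.07 with an interval from -0.15 to 0.21. Dhh, the hedgehog ligand through which Sertoli cells instruct Leydig and peritubular cells, differed by 0.13 ± 0.10. Groups overlapped for all 3.

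The remaining members are Aard and Mro. Aard, which encodes a protein rich in alanine and arginine, differed by 0.08 ± 0.07 (log2, SE). Mro (maestro), known for male-specific expression in the developing gonad, read 0.98, 0.96 and 1.09 in the knockout against 0.88, 0.81 and 0.90 in the wild type. Its knockout values all lay above the wild type by a small margin, with a difference of 0.15 ± 0.07 (limma adjusted p = 0.652). The other Mro probe gave the same difference of 0.15 ± 0.09 with overlapping groups.

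Replicate spots give the error of reading a spot. Sox9, Nr0b1 and Gja1 were each read by 10 spots of 1 probe per array, of which 8 to 10 remained without outliers. Spots of an array share its labelling and hybridization, so their scatter leaves out the error of those steps. The SD over spots of an array was 0.05 to 0.10 (log2) for Sox9, 0.052 to 0.084 for Nr0b1 and 0.049 to 0.105 for Gja1. Between animals of a genotype, the SD of the Sox9 mean was 0.21 in the knockout against 0.09 in the wild type, that of Nr0b1 0.13 and 0.09, and that of Gja1 0.10 and 0.08. The animals' SD exceeded the highest SD over spots for Sox9 and Nr0b1 in the knockout and was close to it for Nr0b1 in the wild type. It lay within the spots' range of SD for Sox9 in the wild type and for Gja1 in both genotypes. The SD over spots is that of single spots, while the animals' SD is that of means over 8 to 10 spots. Such means carry less reading error than single spots. An animals' SD within the spots' range therefore does not show that the animals differed by no more than reading error. Over the 30 leading probes the SD within a genotype ran from 0.03 to 0.48 with a median of 0.095. Most of these differences are thus of the size of the spread between animals.

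**Figure D4:**
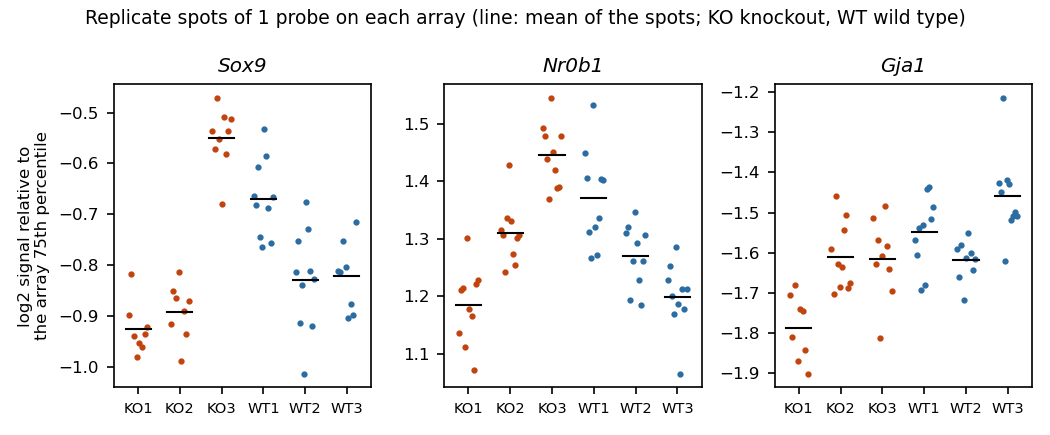
Log2 signal of the replicate spots of the Sox9, Nr0b1 and Gja1 probes on each array (KO, knockout; WT, wild type), relative to the array's 75th percentile, with a line at the mean of the spots; the vertical scales differ between panels. Spots of 1 array scatter with an SD of about 0.05 to 0.1, and the Sox9 spots of knockout replicate 3 lie highest.

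Knockout replicate 3 was the highest array for many of these genes, and for the related lists as well. Relative to each gene's mean of the 6 arrays, the median over the 30 genes was -0.01, 0.01 and 0.11 in knockout replicates 1 to 3 and 0.01, -0.07 and -0.04 in the wild-type replicates. That array held the highest value for 15 of the 30 genes, against 21.5% of all genes, and 24 members lay above their own mean there. Without it, 18 of 30 genes differed upward, with a median of 0.053, and 1 still reached an unadjusted p under 0.05 (4.99% of all genes). On that array the median was also 0.08 over 20 other Sertoli genes and 0.11 over 29 other junction genes. It was 0.15 over 15 partners of the support factors, and in each case the highest of the 6 arrays. The Sertoli list here includes Amh and the junction list Dsg2 and Gjb2, which entered the test through the knockout arrays alone. The medians of those lists are therefore a description. The lowest value lay on the same array for Trf, Cldn3, Cxcl12 and Erbb4.

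Markers of other testis cells moved on that array too. The Leydig markers Star, Cyp11a1, Cyp17a1, Hsd3b1, Hsd3b6 and Hsd17b3 had a median of -0.83 in knockout replicate 3, against 0.02 and 0.11 in the other knockouts and 0.13 to 0.35 in the wild type. Hsd3b1 went the other way and was highest on that array, at 4.57 against 3.64 to 4.30 elsewhere. The other named Leydig markers were each lowest there. The summed level of the Leydig markers, as signal relative to the 75th percentile, was 37.5 to 42.0 in the knockout against 43.0 to 46.2 in the wild type. For the macrophage markers (Csf1r, Adgre1, which is named Emr1 on the array, Cd68, Cd14 and C1qa) the medians were 0.01, -0.01 and -0.30 in the knockout against 0.20, -0.04 and 0.06 in the wild type, and summed levels were 4.04 to 5.09 and 4.91 to 6.01. Cd14 was highest on knockout replicate 3, at -2.30, while the other macrophage markers were each lowest there. The peritubular markers Acta2, Myh11, Cnn1, Tagln and Des had 0.12, -0.11 and 0.17 against -0.02, -0.09 and -0.08, with sums of 14.6 to 17.8 and 15.2 to 15.9. Of these lists, Hsd17b3 (-0.74 ± 0.26) and Myh11 (0.25 ± 0.10, log2, SE) had an unadjusted p under 0.05, beside 6.95% of all genes in either direction. None of the genes passed in limma (lowest adjusted p = 0.639). The adipose markers Adipoq, Fabp4 and Plin1 scattered most, with medians of 0.78, -0.19 and -0.29 against -0.11, 0.35 and -0.59 and sums of 2.86 to 7.12 and 3.13 to 6.47. The part of these cells in the levels of Sertoli genes was not tested. Endothelial medians ran from -0.01 to 0.09 over the 6 arrays. The epididymal markers Lcn5, Lcn8 and Crisp1 stood above background on 0 of 6 arrays, and the dim Adam7 on 5 of 6.

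Germ cell markers are described by class, and no test was made of their medians. Spermatid markers (Acrv1, Tnp1, Prm1 and Prm2) had medians of -0.04, 0.07 and -0.09 in the knockout against 0.08, -0.01 and -0.03 in the wild type, and spermatocyte markers (Sycp1, Sycp3, Spo11 and Hspa2) lay between -0.05 and 0.05 on all arrays. Spermatogonial markers (Zbtb16, Uchl1, Gfra1 and Stra8) had -0.10, -0.15 and 0.16 against 0.01, 0.00 and -0.06. Their median, like that of the members, was thus highest on knockout replicate 3. Gfra1 was highest on wild-type replicate 3, at -4.26 against -4.47 on knockout replicate 3, while the other spermatogonial markers were each highest on knockout replicate 3.

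**Figure D5:**
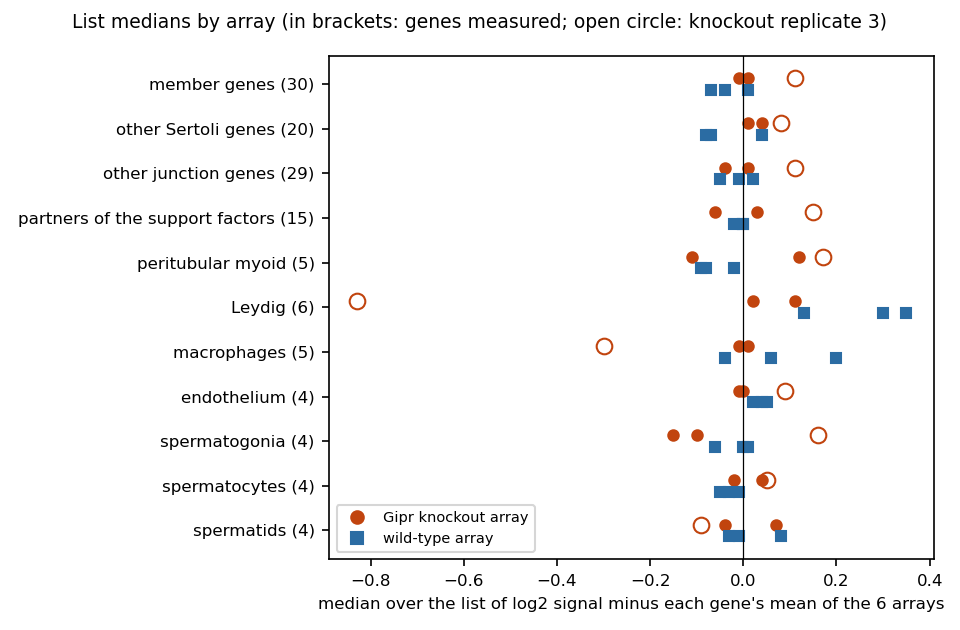
Median over each gene list of the log2 signal relative to each gene's mean of the 6 arrays, per array; circles are knockout arrays, with replicate 3 open, squares wild-type arrays, and the number of genes measured is in brackets. Knockout replicate 3 is the highest array for the 30 member genes (0.11) and the lowest for Leydig (-0.83) and macrophage (-0.30) markers. The other Sertoli and other junction lists include Amh, Dsg2 and Gjb2, which entered the test through the knockout arrays alone.

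Other Sertoli genes, from a list of 20 that shares no gene with the 30, were all measured. Of these, Amh entered the test through the knockout arrays alone. The difference was above 0 for 15 of the other 19 (50.6% of all genes), with a median of 0.057 (0.0018 over all genes). At an unadjusted p under 0.05, 1 of the 19 was higher in the knockout (3.47% of all genes) and 0 were lower (3.49%). None passed in limma. Fshr, the receptor for follicle-stimulating hormone, differed by 0.51 ± 0.19 (log2, SE; adjusted p = 0.639), with all knockout testes above the wild type. Amh, the hormone of immature Sertoli cells, was well above background on all 3 knockout arrays and on 0 wild-type arrays. Since it was tested only because the knockout arrays read it, no difference is given for it. Dmrt1, a factor that keeps Sertoli cells male, differed by 0.14 ± 0.08.

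Of 31 further junction genes 29 were measured, of which Dsg2 and Gjb2 entered the test through the knockout arrays alone. The other 27 had 15 differences above 0 (50.6% of all genes) and 12 below (49.4%), with a median of 0.039 (0.0018 over all genes). The plakoglobin gene Jup was the 1 with an unadjusted p under 0.05 (6.95% of all genes in either direction). It differed by -0.20 ± 0.08 (log2, SE, limma adjusted p = 0.640). Marveld2, the protein tricellulin of contacts where several cells meet, differed by 0.22 ± 0.11 and Lama2, a laminin chain, by 0.25 ± 0.13. Gjb2, a connexin gene, was above background on all 3 knockout arrays and on 1 wild-type array, and no difference is given for it.

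Receptors and partners of the support factors were measured for 15 of 18 genes, 9 above 0 (50.6% of all genes) and 6 below (49.4%). Of these, 0 reached an unadjusted p under 0.05 (6.95% of all genes in either direction) or passed in limma. In the hedgehog pathway, the Dhh receptor and target gene Ptch1 differed by 0.18 ± 0.08 (log2, SE) and the target gene Gli1 by 0.25 ± 0.11, with adjusted p of 0.652 and 0.649, while the transducer Smo stood at 0.08 ± 0.11. The Gdnf co-receptor gene Gfra1 had -0.27 ± 0.16 and the Kitl receptor gene Kit -0.25 ± 0.20. For Cxcl12, the receptor Cxcr4 had -0.19 ± 0.18 and Ackr3 (named Cxcr7 on the array) 0.05 ± 0.10. The neuregulin genes Nrg1, Nrg2, Nrg3 and Nrg4 lay between -0.07 and 0.13, and the transferrin receptor Tfrc had 0.04 ± 0.09. Probes for Ret, Btc and Erbb3 stood above background on 0 of 6 arrays.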

How the data were processed

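Cy3-labelled cRNA made from 100 ng of total RNA per testis was read on 1-colour Agilent arrays with Feature Extraction 10.7.3.1, per the submitters' processing notes. The deposited scanner files give spot intensity values on a linear scale, background-corrected and spatially detrended per the file headers. A deposited value list of 46873 entries equals these intensity values times 1 factor per array (median 200) and served as an alternative. Here outlier spots were left out, log2 taken of the deposited intensity, spots of a probe averaged and each array's 75th percentile subtracted. Probes well above background on all 3 arrays of a genotype were fitted with limma 3.58.1 (R 4.3.3, lmFit and eBayes, 6 arrays, no covariates), two-sided, with Benjamini-Hochberg adjustment over 38882 probes, and the fit was tested on simulated data. Members and lists were chosen with earlier results of these data known. Named are all members, Gipr, up to 4 genes of lowest unadjusted p per further list, receptors or ligands of members, and the markers of other cell types; 2 genes that this rule names are not reported here. The number of arrays limits the precision. The labels name 3 animals per genotype, with 1 array each. The p-values thus measure the spread between animals together with that of labelling and hybridization. Insl3 was not analysed here.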

Additional observations from a re-analysis of the deposited data

How the results depend on the processing

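None of the 30 genes passed an adjusted p under 0.05 in limma under any of the 19 alternatives run, where the lowest adjusted p of a member was 0.221 (array weights). Their median difference ranged from 0.042 to 0.091. The members at an unadjusted p under 0.05, 1 as reported, are given here with the share of all genes under the same setting, which was 6.95% as reported. They were 2 with quantile normalization (7.16%), 2 under the stricter filter (above background on each of the 6 arrays, 7.01%), 2 with 1 brightest probe per gene (7.47%), 4 with normexp (8.80%), 5 with a trended and robust eBayes (8.64%), 7 with array weights (17.2%), 0 when the probes of each gene were averaged (7.88%) and 0 without the GAA-run probes (6.91%). Rhox8 kept an unadjusted p under 0.05 in 16 of the 19, each of which read it by its repeat probe. It did not when its probes were averaged (limma unadjusted p = 0.0731) or without the GAA-run probes (limma unadjusted p = 0.828). Nor did it without wild-type replicate 1 (limma unadjusted p = 0.0509). The 18 calls over all probes became 30 with normexp, 7 with no filter, 35 with the trended and robust eBayes and 29 with array weights. With the replicate number (also the slide column) as a block there were 6 calls and 3 members (6.90% of all genes). Same-numbered arrays had correlations of 0.058, -0.024 and -0.003 in their deviations. These values show no strong shared effect of the number, and they cannot tell whether animals were paired. Leaving out 1 array gave 5 to 11 calls, 1 to 6 members and medians of 0.053 to 0.091.

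Small differences turned sign: Clu at 0.048 with quantile normalization, Kitl at -0.002 with normexp, and Gata4 (0.057), Rhox5 (-0.089), Nr0b1 (-0.033), Cst9 (-0.010) and Ctsl (-0.009) with array weights. Over the omissions of 1 array, Sox9 ranged from -0.135 to 0.052, Gata4 from -0.088 to 0.089, Rhox5 from -0.155 to 0.124, Nr0b1 from -0.033 to 0.098, Clu from -0.027 to 0.013, Cst9 from -0.024 to 0.071, Trf from -0.102 to 0.149, Ctsl from -0.024 to 0.127, Tjp1 from -0.041 to 0.020 and Kitl from -0.011 to 0.081. Others kept their sign but moved by over 1.5 times, as did Shbg, Cxcl12 and Erbb4 above. Gata1 ranged from 0.058 to 0.232, Cst12 from 0.043 to 0.206, Cldn3 from -0.367 to -0.119, Espn from 0.090 to 0.289, Krt18 from 0.007 to 0.281 and Dhh from 0.053 to 0.194. Wt1 ranged from 0.048 to 0.135, Sox8 from -0.177 to -0.057, Cldn11 from 0.061 to 0.154 and Ocln from 0.028 to 0.132. Gja1 ranged from -0.167 to -0.071, Gdnf from 0.058 to 0.164 and Aard from 0.046 to 0.134. The causes were not tested.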
